A study of Mus musculus with 2 samples.

Results

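Genes of the CXC chemokine system, 8 ligands (Cxcl1, Cxcl2, Cxcl3, Cxcl9, Cxcl10, Cxcl12, Cxcl13 and Cxcl16) and 2 receptors (Cxcr2 and Cxcr6), were followed across the cell types of the mouse liver. They were chosen by symbol and make up 10 of the 31053 genes in the deposited matrix. Liver immune cells were freed with collagenase IV, sorted and captured as single cells on the 10x Genomics Chromium system, which counts each captured transcript once by its unique molecular identifier (UMI). The labels name 2 samples, each from mice 8 weeks old of strain RedMUC298trTg. One has the genotype Rcrin KO, a conditional knockout, and the other the genotype WT, which carries the Rcrin flox allele. The Cre driver, the number of animals and the sort gate are not given in the sources used here.

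Chemokines are small secreted proteins that bind receptors of the G protein-coupled kind and guide leukocytes along a gradient. The CXC family is named for the spacing of its first cysteines. Cxcl1, Cxcl2 and Cxcl3 act on Cxcr2 and draw neutrophils, Cxcl9 and Cxcl10 are induced by interferons and act on Cxcr3 of T and NK cells, and Cxcl13 acts on Cxcr5 of B cells. Cxcl12 acts on Cxcr4 and is classically made by stromal cells. Cxcl16 is made as a transmembrane protein, can be shed by proteases, and binds Cxcr6, a receptor of lymphocytes that stay in the liver sinusoids.

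The files of the Rcrin KO sample and of the WT sample were identical, and all 11192 barcodes were shared. Both labels therefore stand for 1 matrix of unknown genotype, no comparison of the genotypes was made, and no value below has a replicate or a test. After filtering and removal of 339 called doublets (3.27%), 10027 cells with 60904273 UMI and a median of 4253 UMI remained. They formed 36 clusters, which were gated by marker genes into 14 classes of at least 30 cells. Genes for chemokines and their receptors were left out of the clustering, so the levels given here did not shape the classes. Markers fitted the names for most classes. Of the 12 Kupffer markers 12 were highest in Kupffer-like cells (the resident macrophages), and of the 12 markers of liver sinusoidal endothelial cells (LSEC) 12 were highest in LSEC-like cells. Endothelial cells are not leukocytes, although the labels call the cells immune cells. The cDC2-like class (68 cells) was the weakest, with 2 of 9 markers highest in it. Its markers summed to 1708 CPM, against 2857 CPM in another class, so its name is uncertain. Another 479 cells in 6 clusters stayed unnamed. The largest of these clusters (198 cells, median 24061 UMI) carried markers of both Kupffer cells and LSEC and is called the mixed cluster below.

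Levels are UMI summed over a class per 1000000 UMI of that class (CPM), and are compared between classes for 1 gene at a time. Intervals are exact 95% intervals (Poisson for a level, Clopper-Pearson for a share, conditional for a ratio). They cover counting error only, not variation between cells or animals. All 10 genes had at least 100 UMI, and among the ranked classes each had its highest level in neutrophil-like cells (3 genes), Kupffer-like cells (3 genes), LSEC-like cells (3 genes) or ILC1-like cells (1 gene). Of the 11944 genes with at least 100 UMI, 6.39% were highest in neutrophil-like, 8.36% in Kupffer-like, 22.4% in LSEC-like and 8.36% in ILC1-like cells. The shares of the other classes, against which gene lists are read below, were 9.95% for basophil or mast-like, 8.55% for B-like, 7.27% for pDC-like, 5.7% for NK-like, 5.22% for plasma-like, 4.63% for nonclassical monocyte-like, 4.16% for cDC1-like, 3.43% for T-like, 2.99% for cDC2-like and 2.56% for classical monocyte-like cells. In 6 of the 10 genes the highest class was at least 2-fold above the next (with 1 CPM added to both), against 19.8% of all genes tested.

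**Figure D1:**
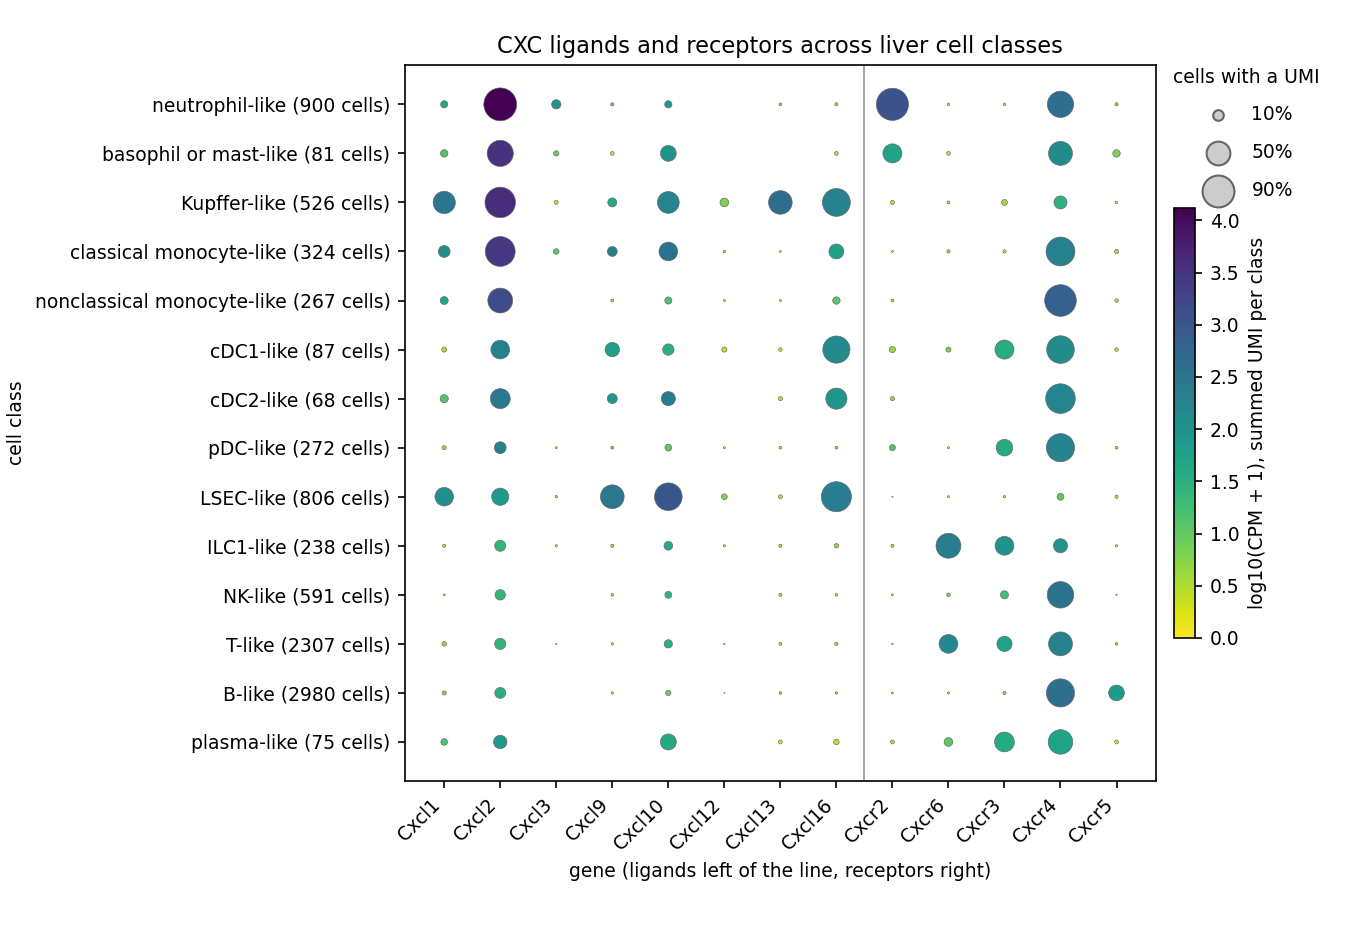
Level and detection of the 8 ligands, Cxcr2, Cxcr6 and the receptors Cxcr3, Cxcr4 and Cxcr5 in 14 marker-gated classes. Colour gives log10(CPM + 1) of UMI summed per class and dot area the share of cells with at least 1 UMI. Cxcl2 and Cxcr2 are darkest in neutrophil-like cells, Cxcl13 stands out in Kupffer-like cells, Cxcl9 and Cxcl10 in LSEC-like cells, and Cxcr6 in ILC1-like and T-like cells.

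The ligands of Cxcr2 did not share 1 source: Cxcl1 was highest in Kupffer-like cells, and Cxcl2 and Cxcl3 in neutrophil-like cells. The genes lie in 1 stretch of chromosome 5 (mm10, GENCODE M21): Cxcl3 at 90786103 to 90789600, Cxcl1 at 90891241 to 90893115 and Cxcl2 at 90903871 to 90905938, all on the plus strand and within 119.8 kb. The bases just before their start sites are shown because 1 run of letters occurs in each. In the promoters of RefSeq (GRCm38.p6), the longest run that the 250 bases before the starts of the 3 genes have in common, on either strand, is GGGAATTTCCC, 11 bases that are letters of the kind bound by NF-kB. As the run was read from these 3 genes, its presence in them is given. It occurred on either strand before the start in 0.0426% of 32851 promoters, and in none of the other members among the 9 whose promoter was in that table. A longer common run, of 13 bases, lies after the start sites and is not shown. The run, in capitals, begins 71 bases before the RefSeq start of Cxcl1, 97 before that of Cxcl2 and 73 before that of Cxcl3. The 110 bases before each of these starts read:
Cxcl1, chr5:90891135-90891244, plus strand: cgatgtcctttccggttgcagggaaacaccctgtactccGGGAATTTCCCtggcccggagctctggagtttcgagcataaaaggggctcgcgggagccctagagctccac
Cxcl2, chr5:90903789-90903898, plus strand: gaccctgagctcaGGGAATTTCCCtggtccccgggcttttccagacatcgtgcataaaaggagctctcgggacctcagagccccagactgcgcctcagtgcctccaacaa
Cxcl3, chr5:90785991-90786100, plus strand: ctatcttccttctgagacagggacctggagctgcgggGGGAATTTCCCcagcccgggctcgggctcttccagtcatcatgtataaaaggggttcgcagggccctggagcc
The promoters share these letters, while the levels of the 3 genes differed widely, as follows. A match is a description of the letters and not evidence of binding.

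Cxcl2 had the most UMI of the 10 genes, 87783 in all kept cells. Its level was 13045 CPM in neutrophil-like cells (12907 to 13185), 3868 CPM in Kupffer-like cells, 3253 CPM in basophil or mast-like cells, 2891 CPM in classical monocyte-like cells and 1499.5 CPM in nonclassical monocyte-like cells (1436 to 1565). The ratio of neutrophil-like to Kupffer-like cells was 3.37 (3.32 to 3.43). At least 1 UMI was present in 95.8% of neutrophil-like cells (862 of 900) and in 82.5% of Kupffer-like cells. B-like cells (median depth 3239 UMI), taken as a measure of free RNA because they should lack the gene, had a UMI in 10.5% of cells and a level of 31.9 CPM. Cells were also thinned to 1000 UMI, which left out those with fewer, among them 57 of the 526 Kupffer-like cells. The shares were then 90.9% of neutrophil-like and 74.2% of Kupffer-like cells, against 3.37% of B-like cells. T-like, ILC1-like and NK-like cells held from 23.7 to 26.0 CPM, at or below the level of B-like cells, and LSEC-like cells 77.4 CPM. Since Kupffer-like cells are deeper (median 13159.5 UMI, against 2562.5 in neutrophil-like cells), the order was different per cell. Among cells with the transcript, the median was 29 UMI in neutrophil-like and 40 UMI in Kupffer-like cells.

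Neutrophil-like cells fell into a large cluster (826 cells) and a small one (74 cells). Ngp and Camp, granule genes of immature neutrophils, were at 60.6 CPM and 3.76 CPM in the large, mature cluster and at 22519 CPM and 17133 CPM in the small, immature one. Cxcl2 was at 15609 CPM in the mature cluster and 1656 CPM in the immature one, a ratio of 9.42 (8.78 to 10.1). Cxcl3 had 246 UMI in the mature cluster (116 CPM) and 3 UMI in the immature cluster (6.26 CPM), a ratio of 18.5 with a wide interval (6.24 to 90.1). Cxcr2 differed less, with 1317 CPM in mature and 682 CPM in immature cells, a ratio of 1.93 (1.72 to 2.17). Cxcl1 was at 48.8 CPM in the mature cluster and had 0 UMI in the immature one, which allows up to 6.26 CPM. Both the ligands and their receptor were higher in the mature cluster, and the ligands by the wider margin.

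Cxcl3 was scarce. Its level was 95.5 CPM in neutrophil-like cells (84.0 to 108), with 249 of the 316 UMI of all kept cells, and 9.47 CPM in classical monocyte-like cells (6.24 to 13.8). The 2980 B-like cells held 0 UMI, which allows a level of up to 0.284 CPM (3 UMI over the class). The log2 ratio of neutrophil-like to classical monocyte-like cells was 3.33, and 5.06 after thinning to 1000 UMI. It was present in 69 of 900 neutrophil-like cells (7.67%), and 11 cells held 50% of that class's UMI, so the level rests on few cells. Cxcl2 and Cxcl3 are close copies, and transcripts of both share stretches of 50 bases. These lie at least 850 bases from the end of Cxcl3 and at least 227 bases from the end of the Cxcl2 transcripts, and the assignment of reads between the genes is uncertain there. For every 1000 UMI of Cxcl2 there were 7.32 UMI of Cxcl3 in neutrophil-like cells, 3.28 in classical monocyte-like cells (27 UMI) and 0.326 in Kupffer-like cells (8 UMI). LSEC-like cells, which had little of either, had 27.7, from 14 UMI of Cxcl3 and 506 of Cxcl2. This value rests on few cells, as 4 of 806 had Cxcl3 and 1 cell held 10 of the 14 UMI. Per 1000 UMI of both genes together, the interval was 14.8 to 44.8 in LSEC-like and 6.39 to 8.22 in neutrophil-like cells. Kupffer-like cells, with 24562 UMI of Cxcl2, thus held almost no Cxcl3, and the counts of the genes were not in 1 ratio. Of the other members, Cxcr2 shared 4.01% and Cxcl9 0.472% of its stretches of 50 bases with other genes.

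Kupffer-like cells held 2101 of the 5084 UMI of Cxcl1, unnamed clusters 1408 and LSEC-like cells 772. Its level was 331 CPM in Kupffer-like cells (317 to 345), 118 CPM in LSEC-like cells, 114 CPM in classical monocyte-like cells, 49.4 CPM in nonclassical monocyte-like cells and 39.9 CPM in neutrophil-like cells, against 4.45 CPM in B-like cells. Kupffer-like cells were 2.80-fold above LSEC-like cells (2.58 to 3.05), while LSEC-like and classical monocyte-like cells could not be told apart (ratio 1.04, 0.911 to 1.19). A UMI was found in 43.9% of Kupffer-like and 30.4% of LSEC-like cells, against 1.51% of B-like cells, and after thinning to 1000 UMI in 20.9% and 9.18%, against 0.337%. The transcripts were unevenly spread. In classical monocyte-like cells 40 of 324 cells had a UMI and 5 cells held 50% of the UMI, whereas in Kupffer-like cells 33 cells did. Cholangiocyte-like cells, the lining of the bile ducts, had the highest level at 942 CPM (800 to 1102), but there were only 12 of them and they were not ranked.

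Cxcl1 and Cxcl2 occurred together in cells of the 2 classes examined, Kupffer-like and classical monocyte-like cells. Among Kupffer-like cells thinned to 1000 UMI, Cxcl2 was present in 89.8% of the 98 cells with Cxcl1 and in 70.1% of the 371 cells without it (65.1 to 74.7%). Among classical monocyte-like cells it was present in 17 of 17 cells with Cxcl1 and in 54.8% of the 303 cells without it (49.0 to 60.5%). Kupffer-like cells also differed by cluster. The low-UMI cluster (141 cells) held Cxcl2 at 1119 CPM and Cxcl1 at 125 CPM, and the large cluster (385 cells) held Cxcl2 at 4001 CPM and Cxcl1 at 341 CPM, ratios of 0.280 (upper bound 0.312) and 0.368 (0.258 to 0.509). Cxcl13 was at 478 CPM in the low-UMI cluster and 464 CPM in the large one, a ratio of 1.03 (0.864 to 1.22). Of the low-UMI cluster, 57 of 141 cells were left out by the thinning. The shares of cells with Cxcl1 and Cxcl2 pool the clusters of a class, and the low-UMI Kupffer cluster was lower in both genes. Whether they go together within single clusters was not tested.

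Genes of the early stress response to tissue digestion were counted by their highest class. Of 12 such genes, 5 were highest in Kupffer-like cells, 4 in basophil or mast-like cells (background 9.95%), 2 in neutrophil-like cells and 1 in LSEC-like cells. Classical and nonclassical monocyte-like cells were highest for 0, but their backgrounds of 2.56% and 4.63% are too low for 12 genes to show a lack. The mean level of the list was 1284 CPM in neutrophil-like, 1198 CPM in Kupffer-like and 942 CPM in basophil or mast-like cells. It was 671 CPM in LSEC-like, 592 CPM in nonclassical monocyte-like and 482 CPM in classical monocyte-like cells. Junb, an AP-1 subunit, was at 6740 CPM in neutrophil-like cells and next at 3453 CPM in ILC1-like cells. Egr1, an immediate early transcription factor, was at 2719 CPM in basophil or mast-like cells and next at 2525 CPM in Kupffer-like cells. Of 11 genes induced by NF-kB, 5 were highest in basophil or mast-like, 2 each in neutrophil-like and classical monocyte-like, and 1 each in Kupffer-like and ILC1-like cells. The basophil or mast-like class was small and depended on how it was drawn, with 81 cells here and 43 under another seed of the clustering. Il1b, which encodes an inflammatory cytokine, was at 8486 CPM in neutrophil-like cells and next at 1348 CPM in nonclassical monocyte-like cells. Ccl4, a chemokine of the CC family, was at 11437 CPM in basophil or mast-like cells and next at 6343 CPM in pDC-like cells (plasmacytoid dendritic cells). In the mature neutrophil cluster Junb was at 7785 CPM and Il1b at 10282 CPM, against 2099 CPM and 507 CPM in the immature cluster. The part of digestion in the levels of Cxcl1 and Cxcl2 was not tested.

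Cxcr2, the receptor of these ligands, was nearly confined to neutrophil-like cells, which held 3132 of its 3324 UMI (94.2%). Its level there was 1201 CPM (1159 to 1243), with a UMI in 91.7% of cells, against 1.04 CPM and 0.336% of cells in B-like cells. After thinning it was present in 67.1% of neutrophil-like cells, against 0.0673% of B-like cells. Basophil or mast-like cells came next at 51.9 CPM (37.0 to 70.6), with a UMI in 26 of 81 cells, and the ratio was 23.2 (log2 4.53). This ratio depended on how that class was drawn. Under another seed of the clustering the class had 43 cells at 170 CPM (log2 ratio 2.82). Cxcr2 was rare in Kupffer-like cells (10 UMI, 1.57 CPM, 0.755 to 2.90), classical monocyte-like cells (1 UMI) and LSEC-like cells (1 UMI). The level in Kupffer-like cells lay close to that of B-like cells (0.520 to 1.86 CPM), and a UMI was present in 1.52% of the deeper Kupffer-like cells. Cxcl2 and Cxcr2 thus peaked in 1 ranked class, the neutrophil-like cells. Within it, Cxcl2 was present in 91.8% of the thinned cells with Cxcr2 (89.3 to 93.9%) and in 89.1% of those without it (85.0 to 92.4%), shares so high that they could show little difference. Cxcr1, the related receptor, had 65 UMI in all and was at 26.3 CPM in the mature neutrophil cluster with no UMI in the immature one. Cxcr2 lies on the plus strand of chromosome 1 at 74153989 to 74161246.

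**Figure D2:**
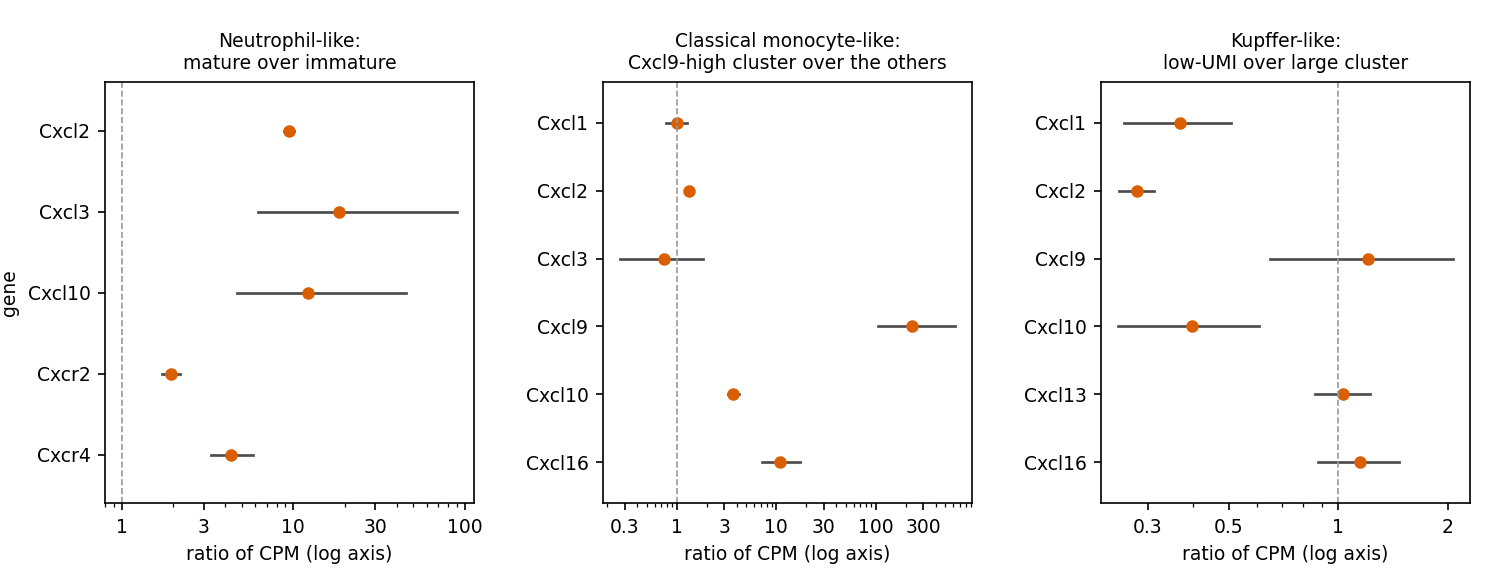
Ratio of CPM between clusters of 1 class, with exact 95% intervals as horizontal lines on log axes and a dashed line at 1. In neutrophil-like cells every gene drawn is higher in the mature cluster, with Cxcr2 nearest to 1 (1.93). In classical monocyte-like cells Cxcl9, by which the cluster was picked, lies far to the right (229) and Cxcl1 on the dashed line. In Kupffer-like cells Cxcl1, Cxcl2 and Cxcl10 lie below 1 and the lines of Cxcl13 and Cxcl16 cross it.

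The interferon-induced ligands Cxcl9 and Cxcl10 were highest in LSEC-like cells, with classical monocyte-like cells next. They lie within 27.5 kb on the minus strand of chromosome 5, at 92321347 to 92328079 (Cxcl9) and 92346638 to 92348889 (Cxcl10). Cxcl10 was at 1017 CPM in LSEC-like cells (993 to 1042), 369 CPM in classical monocyte-like cells, 266 CPM in cDC2-like cells and 182 CPM in Kupffer-like cells, and LSEC-like cells were 2.76-fold above the next class. Cxcl9 was at 305 CPM in LSEC-like cells (292 to 319), 227 CPM in classical monocyte-like cells (210 to 245), 81.4 CPM in cDC2-like cells and 63.1 CPM in cDC1-like cells. The ratio of LSEC-like to classical monocyte-like cells for Cxcl9 was 1.35 (1.23 to 1.47). It was small and moved with the processing: on the log2 scale it was 0.43, and 1.14 where each cell was gated on its own markers. Cxcl10 was found in 67.9% of LSEC-like cells, against 6.11% of T-like cells (median 4868 UMI), and Cxcl9 in 49.9% of LSEC-like cells, against 0.470% of B-like cells. After thinning the shares were 39.0% against 2.35% for Cxcl10 and 19.7% against 0.168% for Cxcl9.

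Cxcl9 and Cxcl10 were spread over cells in different ways in LSEC-like and monocyte-like cells. In LSEC-like cells 402 of 806 cells had Cxcl9 and 72 cells held 50% of its UMI. In classical monocyte-like cells 28 of 324 cells had it (8.64%), with up to 106 UMI in a cell, and 4 cells held 50%. These lay mostly in 1 cluster of 97 cells, led by Ly6i, Slamf8 and Ms4a4c. After the values were seen it was picked as the classical monocyte-like cluster, of at least 30 cells, with the highest Cxcl9. That Cxcl9 is higher in it was thus given. Cxcl9 was at 706 CPM there, against 3.09 CPM in the other 227 classical monocyte-like cells (ratio 229, 105 to 626). Cxcl10 was at 735 CPM in that cluster, against 198 CPM in the others (ratio 3.71, 3.27 to 4.22). Cxcl16 was at 152 CPM, against 13.9 CPM (interval of the ratio 7.22 to 17.2). The ligands of Cxcr2 differed less. Cxcl1 was at 114 CPM in both (interval of the ratio 0.783 to 1.27), and Cxcl2 at 3458 CPM, against 2627 CPM (ratio 1.32, 1.26 to 1.38). At least 2-fold higher in this cluster were 4 of the 8 ligands, and 8.38% of all genes tested. The 4 include Cxcl9, by which the cluster was picked, and Cxcl13 with 1 UMI against 0. The count is therefore not read against that share.

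Genes of the interferon gamma pathway, its cytokine and receptor chains as well as genes of the response, were compared over the same cells. Of 11 such genes 9 were higher in the Cxcl9-high cluster, 5 of them at least 2-fold, with a median log2 ratio of 0.98, against a median of 0 and 45.6% of genes higher in it over all 11944 genes. Gbp2, a GTPase induced by interferon, was at 461 CPM in the cluster and 45.3 CPM in the other classical monocyte-like cells, and was chosen after its values were seen. Genes of other lists were also on the higher side in the cluster, 9 of the 11 induced by NF-kB (median log2 ratio 0.37) and 10 of the 12 stress genes of digestion (0.35), and their part in the difference was not tested. Over the classes, 3 of the 11 genes were highest in LSEC-like, 3 in ILC1-like, 2 in classical monocyte-like and 1 each in Kupffer-like, NK-like and pDC-like cells. The cytokine gene was 1 of those in ILC1-like cells. Receptor chains were 1 of those in classical monocyte-like cells and the 1 in NK-like cells. Iigp1, an interferon-induced GTPase, was at 568 CPM in LSEC-like cells and next at 97.3 CPM in Kupffer-like cells. Ifngr1, a chain of the interferon gamma receptor, was at 1489 CPM in NK-like and next at 855 CPM in ILC1-like cells, and Irf1, a transcription factor of the response, at 455 CPM in pDC-like and next at 294 CPM in NK-like cells.

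In LSEC-like cells Cxcl10 went with Cxcl1. After thinning, Cxcl10 was present in 62.2% of the 74 cells with Cxcl1 (50.1 to 73.2%) and in 36.6% of the 732 cells without it (33.1 to 40.2%). The same difference was smaller for Cxcl9, with Cxcl10 in 47.2% of cells with Cxcl9 (39.2 to 55.2%) and 36.9% of cells without it (33.2 to 40.8%), where the intervals overlap. It could not be told apart for Cxcl16 (42.5%, 34.7 to 50.6%, and 38.1%, 34.3 to 42.0%).

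Cxcr3, the receptor of Cxcl9 and Cxcl10, was highest in lymphocytes. Its level was 98.8 CPM in ILC1-like cells (81.3 to 119), innate lymphocytes of the liver, and 55.4 CPM in T-like cells (51.3 to 59.7), followed by 39.4 CPM in pDC-like cells, 37.8 CPM in plasma-like cells and 34.5 CPM in cDC1-like cells. pDC-like, plasma-like and cDC1-like cells could not be told apart, each from the next, while ILC1-like cells were 1.78-fold above T-like cells (1.45 to 2.18) and cDC1-like cells 2.08-fold above NK-like cells (1.34 to 3.24), at 16.6 CPM. B-like cells had 4.26 CPM. Dpp4, a protease that trims Cxcl10 in humans and mice, was at 673 CPM in LSEC-like cells and next at 108 CPM in cDC1-like cells.

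Cxcl13, which guides B cells, had the highest ratio of the 8 ligands between its highest class and the next. By the share of UMI in 1 class it came after Cxcl3, with 64.0% in Kupffer-like cells, against 78.8% of Cxcl3 in neutrophil-like cells. Its level was 464 CPM in Kupffer-like cells (448 to 481) and 3.07 CPM in the next class, neutrophil-like cells, a ratio of 151 that sets a level against background, since B-like cells held 2.18 CPM. A UMI was present in 49.4% of Kupffer-like cells, against 0.638% of B-like cells, and after thinning in 20.3%, against 0.202%. The Kupffer-like class and the mixed cluster together held nearly all of its UMI, 2949 and 1583 of 4609. Cxcl13 was uneven among Kupffer-like cells: 266 of 526 cells had none, and the 53 cells with the most held 71.8% of the UMI, with up to 160 UMI in 1 cell. Cxcl2 was less uneven there, the top 53 cells holding 36.3%. Thinned Kupffer-like cells with Cxcl13 had Cxcl1 in 16.8% (9.94 to 25.9%) and those without it in 21.9% (17.8 to 26.5%), which could not be told apart. Its receptor Cxcr5 was at 75.7 CPM in B-like cells (70.5 to 81.1), where 21.9% of cells had a UMI, and at 5.19 CPM or below in every other ranked class. The gene is on the plus strand of chromosome 5 at 95956951 to 95961068.

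Cxcl16 was shared by endothelial, macrophage and dendritic classes. Its level was 246 CPM in LSEC-like cells (234 to 259), 194 CPM in Kupffer-like cells (183 to 205), 142 CPM in cDC1-like cells (123 to 164), 93.4 CPM in cDC2-like cells and 57.9 CPM in classical monocyte-like cells, against 1.98 CPM in T-like cells. LSEC-like cells were 1.27-fold above Kupffer-like cells (1.18 to 1.37). It was the most evenly spread ligand of LSEC-like cells, present in 80.1% of them (646 of 806) with a median of 2 UMI, and in 68.8% of Kupffer-like and 65.5% of cDC1-like cells, against 0.997% of T-like cells. Thinned to 1000 UMI, the shares were 19.9%, 16.2% and 18.8% for LSEC-like, Kupffer-like and cDC1-like cells, against 0.218% of T-like cells, with overlapping intervals among the 3 makers. The gene lies on the minus strand of chromosome 11 at 70453983 to 70459984. Adam10, a protease that sheds Cxcl16, was at 224 CPM in Kupffer-like and next at 198 CPM in LSEC-like cells, the same classes, and was chosen after its values were seen.

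**Figure D3:**
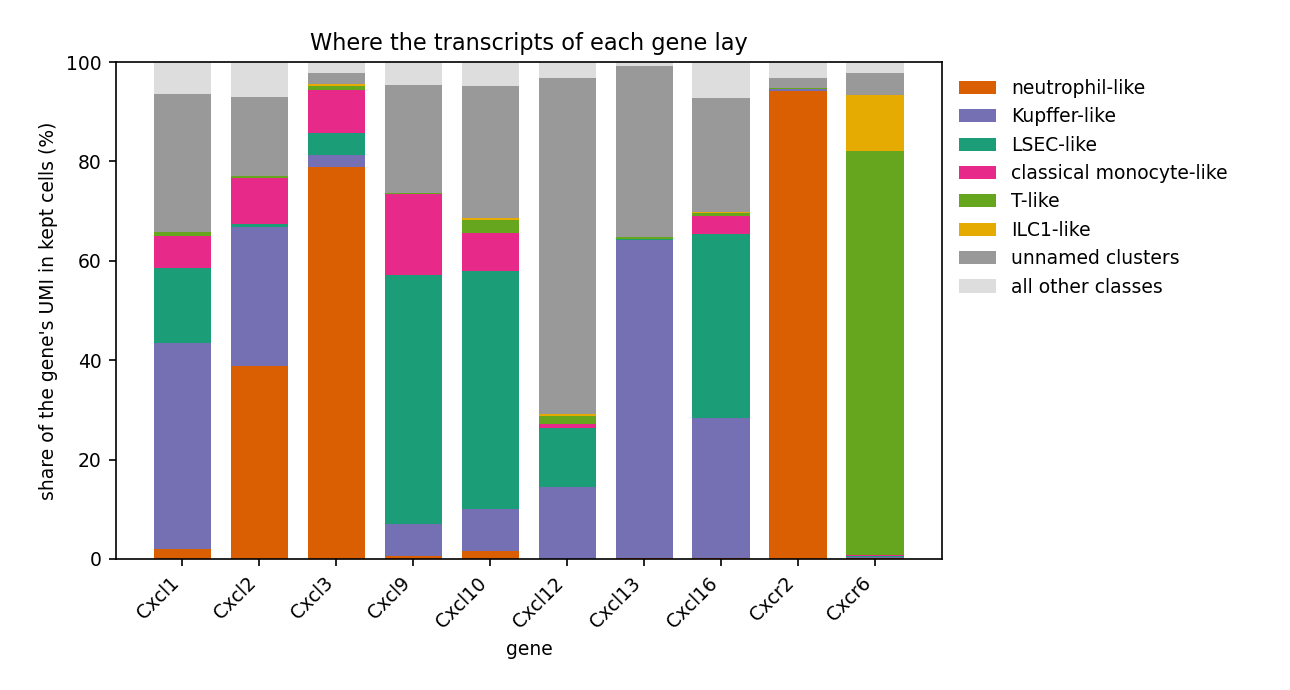
Share of each gene's UMI held by the classes of the suspension, in percent of the UMI in kept cells. Neutrophil-like cells hold 94.2% of Cxcr2, T-like cells 81.3% of Cxcr6, LSEC-like cells 50.2% of Cxcl9, and unnamed clusters 67.7% of Cxcl12. These shares move with the cell numbers that the sort let through.

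Cxcr6, the receptor of Cxcl16, was held by lymphocytes, in which Cxcl16 was at 3.53 CPM or less. ILC1-like cells had 244 CPM (216 to 275) and T-like cells 166 CPM (159 to 174), a ratio of 1.47, while NK-like cells, which share many genes with ILC1-like cells, had 5.92 CPM (3.31 to 9.76). A UMI was present in 55.0% of ILC1-like, 31.2% of T-like and 1.18% of NK-like cells, against 0.403% of B-like cells. After thinning the shares were 18.2% of ILC1-like and 12.1% of T-like cells, against 0.0337% of B-like cells. In UMI, T-like cells held 2012 of 2474 (81.3%) and ILC1-like cells 277 (11.2%), as T-like cells were far more numerous. LSEC-like and Kupffer-like cells had 4 UMI each. The gene is on the plus strand of chromosome 9 at 123806475 to 123811760.

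T-like cells were not uniform, and their clusters spanned the whole range of Cxcr6. The cluster with genes of gamma-delta T cells that make interleukin 17 (38 cells, Trdc at 747 CPM, Il17a at 903 CPM) had 624 CPM of Cxcr6 (534 to 724) in 36 of 38 cells. The innate-like cluster (438 cells, with 167 CPM of Zbtb16, whose product directs the innate T cell programme) had 479 CPM (453 to 507) in 78.5% of cells. Both were above the ILC1-like cells. A cluster high in Ikzf2 (220 cells) had 162 CPM in 40.9% of cells, an activated or regulatory cluster with Ctla4 (255 cells) 125 CPM in 27.8%, and the cluster of effector-memory CD8 T cells with Gzmk (588 cells) 106 CPM in 26.4%. The clusters with genes of naive T cells were low: the one with CD8 genes (424 cells) had 9.23 CPM, and the one with Cd4 (344 cells) had 0 UMI, which allows up to 1.85 CPM.

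Cxcr3 did not follow the same order over these clusters. It was at 106 CPM in the innate-like, 98.9 CPM in the activated or regulatory and 70.0 CPM in the effector-memory CD8 cluster, with 98.8 CPM in ILC1-like cells. In the gamma-delta cluster, the highest for Cxcr6, it had 2 UMI (7.26 CPM, 0.879 to 26.2). Over all thinned T-like cells Cxcr3 was present in 11.2% of cells with Cxcr6 (7.70 to 15.5%) and in 4.17% of cells without it (3.34 to 5.13%). These shares pool all T-like clusters, and the naive clusters had little of either gene. After thinning, Cxcr6 was in 5 of 422 naive CD8 and 0 of 343 naive Cd4 cells, and Cxcr3 in 4 and 0. Whether the genes go together within single T-like clusters was not tested. Among ILC1-like cells Cxcr3 was present in 2 of 43 cells with Cxcr6 (4.65%) and in 8.29% of cells without it, with overlapping intervals.

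**Figure D4:**
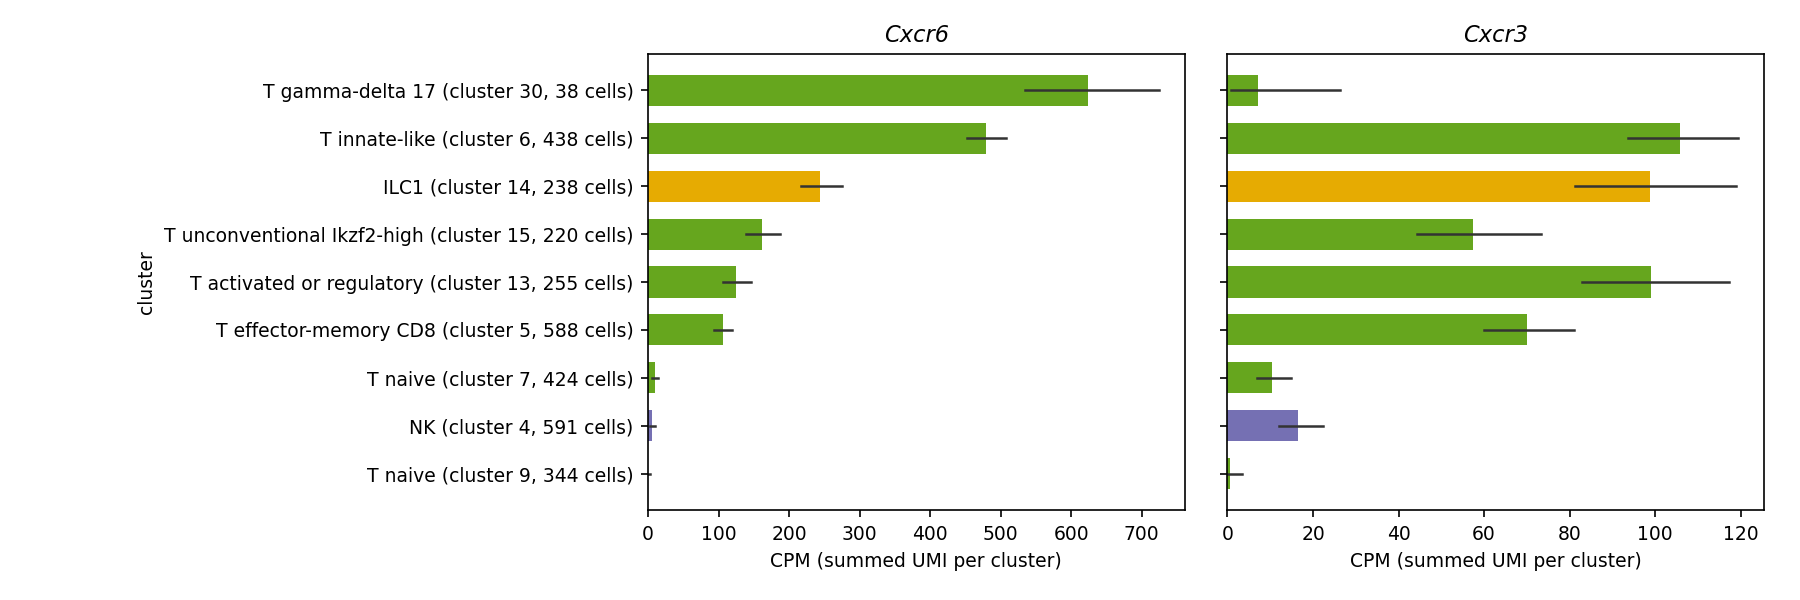
Cxcr6 (left) and Cxcr3 (right) in clusters of T-like, ILC1-like and NK-like cells, in CPM of UMI summed per cluster, with exact 95% Poisson intervals as lines. Green bars are T-like, yellow ILC1-like and purple NK-like clusters, named by the subtype list that scored highest. The gamma-delta cluster is highest for Cxcr6 (624 CPM) and has 7.26 CPM of Cxcr3.

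Genes of tissue residence and recirculation did not share a class with Cxcr6 as a group. Of 10 tested, 1 (Rgs1, a brake on G protein signalling) peaked in ILC1-like cells, with 3521 CPM and next 1431 CPM in Kupffer-like cells. LSEC-like cells were highest for 2, including Itga1, an integrin chain that binds collagen, at 775 CPM and next at 298 CPM in ILC1-like cells. B-like, Kupffer-like, NK-like, basophil or mast-like, cDC1-like, neutrophil-like and nonclassical monocyte-like cells were each highest for 1. Klf2, a factor that promotes egress from tissue, was at 1407 CPM in Kupffer-like and next at 1303 CPM in LSEC-like cells, and Itgal, an integrin chain of leukocytes, at 1152 CPM in nonclassical monocyte-like and next at 541 CPM in NK-like cells.

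Cxcl12, on the plus strand of chromosome 6 at 117168535 to 117181367, was rare, with 254 UMI in all kept cells. Among ranked classes it was at 5.83 CPM in Kupffer-like cells (4.10 to 8.03) and 4.59 CPM in LSEC-like cells (3.10 to 6.55), which could not be told apart (ratio 1.27, 0.763 to 2.13). B-like cells had 0.189 CPM and neutrophil-like cells 0 UMI, which allows up to 1.15 CPM. A UMI was present in 6.65% of Kupffer-like cells, against 0.0671% of B-like cells, and after thinning in 0.640%, against 0 of 2971 B-like cells. Its highest class was not stable. It was cDC1-like cells where each cell's own CPM was averaged, on 2 UMI in 87 cells. The mixed cluster, when ranked, was above all at 33.3 CPM. Most of the transcript lay in few cells: 7 cells with 5 or more UMI held 148 of the 254 UMI (58.3%), 6 of them in the mixed cluster. These cells, picked by their Cxcl12, carried 860 UMI of Dcn, 147 of Rgs5, 86 of Reln and 24 of Lrat. These are genes of hepatic stellate cells and other stromal cells, and 7 of 8 such markers were present, Col1a1 being at 0. Pooled over cells, the presence of the markers was not particular to the 7 cells. The other 192 cells of the mixed cluster held 8 of 8, with 216 UMI of Dcn in 37 cells and 53 of Rgs5 in 42 cells. Per cell the markers were more frequent among the 7, where Dcn, Rgs5, Reln and Lrat were each in 6 cells. Of the 192, Reln was in 7 and Lrat in 15. Col1a1 went the other way, being in 2 of the 192. In 6 of the 7 cells the Kupffer gene Clec4f and the LSEC gene Stab2 were present too, and the depth of the 7 ran from 11082 to 49722 UMI. Whether doublets that were not called are among these 7 cells was not tested.

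Cxcr4, the receptor of Cxcl12, was widely held. It was at 725 CPM in nonclassical monocyte-like cells (681 to 771), 437 CPM in neutrophil-like cells, 432 CPM in B-like cells and 367 CPM in NK-like cells, and neutrophil-like and B-like cells could not be told apart (ratio 1.01). Mature neutrophil-like cells had 509 CPM and immature ones 117 CPM (ratio 4.36, 3.33 to 5.81). Ackr3, an atypical receptor that takes up Cxcl12, was at 27.5 CPM in LSEC-like cells and next at 1.61 CPM in B-like cells. Ackr1, which binds many chemokines, was at 41.1 CPM in LSEC-like cells and next at 0.882 CPM in ILC1-like cells.

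The genes most like each member over the 14 classes were taken by Pearson correlation of log2(CPM + 1), given as a description, since classes come from 1 library and were built from the same counts. For Cxcl2 they were Ccl6 (r 0.96), C5ar1 (0.95) and Ftl1 (0.95), and Ccl6 is on the marker list of mature neutrophils. For Cxcl13 they were Clec4f (r 0.99), Paqr9 (0.98) and Folr2 (0.98), and Clec4f is one of the markers that named the Kupffer-like class. For Cxcl9 the nearest gene was Cxcl16 (r 0.90), then Cttnbp2nl (0.90) and Pnp (0.90), and for Cxcl16 they were Cttnbp2nl (0.93), Arf2 (0.92) and Ccl2 (0.92). For Cxcr6 they were Bcl11b (r 0.95), Cd3g (0.95) and Tcrg-C4 (0.95), T cell genes. Bcl11b and Cd3g are among the markers that named the T-like class, and Tcrg-C4 is on the list of innate-like T cells. For Cxcr2 they were AC110211.1 (r 0.92), Crispld2 (0.92) and Il1f9 (0.91), for Cxcl3 Slc27a4 (0.90), Crispld2 (0.89) and Il1rap (0.89). For Cxcl1 they were Ly96 (r 0.92), Hmox1 (0.91) and Ipmk (0.90), for Cxcl10 Pgm1 (0.87), Gas2l1 (0.84) and Mt1 (0.83), and for Cxcl12 2510009E07Rik (0.93), Sbf2 (0.92) and Rcan1 (0.92). Among the members, Cxcl9 and Cxcl16 were the closest pair and Cxcl9 and Cxcl10 the next (r 0.76).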

How the data were processed

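Single-cell transcript counts of sorted mouse liver immune cells were taken as deposited. They are raw UMI counts for each gene in each barcode, whole numbers without normalization. The tools named per the submitters' processing notes are STAR, Cell Ranger 2.1.1 and Seurat 2.3.4, with build mm10, while software version 3.0.0 wrote the matrix per the file headers. The tool behind the counts and the use of strand are not given in the sources used.

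Cells needed 500 UMI, 200 genes and a mitochondrial share of 10% or less. Of 11192 barcodes with 67037274 UMI, 56 had too few genes and 778 exceeded the mitochondrial limit. Scrublet doublets were removed (expected rate 6%). Python 3.11.15 with scanpy 1.11.5 and scipy 1.17.1 was used, with 2000 variable genes other than chemokine genes, 30 components, 15 neighbours and Leiden resolution 1.0. Clusters took the name of the best of 21 marker lists, if at least 3 markers were each in 25% of cells and the mean log2 fold was at least 1. Monocyte and conventional dendritic clusters were clustered once more at resolution 0.5. That step and parts of the naming rule were chosen after the data were seen. Called genes are at least 2-fold over the next class. The calculations were tested on simulated data. The named genes are the 10 members, the 3 most similar genes of each (at least 50 CPM in its highest class), up to 4 genes of each list with the highest CPM, and the receptors Cxcr3, Cxcr4 and Cxcr5. Those named outside this rule, including the markers of single clusters, the atypical receptors, Cxcr1, Dcn, Rgs5, Reln and Lrat, were chosen after their values were seen. The members and lists were chosen with earlier results of these data known. Alternatives changed the filters, clustering, gating, depth and scaling. One gene list member, Cxcl11, was not analysed here. A gene of the interferon gamma list is not reported here by name.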

Additional observations from a re-analysis of the deposited data

How the results depend on the processing

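The highest class was recomputed under 14 alternatives (12 planned, 2 chosen after the data were seen), and 9 of the 10 genes kept theirs in each, Cxcl12 being the exception. Each ratio was taken between the classes that were highest and next in the main analysis. None of these 140 ratios turned round, and 26 left the interval of the reported value. A change of the highest class to one outside the pair, as for Cxcl12, does not show in them. The log2 ratio was lowest at 1.38 for Cxcl2 and ran from 0.25 to 1.14 for Cxcl9, from 0.12 to 0.39 for Cxcl16, from 0.35 to 0.96 for Cxcr6, from 3.06 to 5.06 for Cxcl3 and from 2.65 to 4.55 for Cxcr2. The cause of these shifts was not tested. No paired analysis was possible because both samples held the same matrix. With 1 matrix the intervals say nothing of animals, and 254 UMI of Cxcl12 do not order Kupffer-like and LSEC-like cells.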

Other observations

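Of the 6 other CXC ligands present in the gene list, 2 had at least 100 UMI (Pf4 with 1319 and Ppbp with 113), and both were highest in basophil or mast-like cells. Pf4, a platelet chemokine, was at 777 CPM there, in 11.1% of cells, and next at 49.8 CPM in Kupffer-like cells. Ppbp, another platelet chemokine, was at 90.7 CPM there and next at 3.45 CPM in neutrophil-like cells. Both levels rest on few of the 81 cells of the class, with 599 UMI of Pf4 in 9 cells and 70 UMI of Ppbp in 7. Under another seed of the clustering the class had 43 cells. Of the 5 other receptors tested, 2 were highest in LSEC-like cells and 1 each in B-like, ILC1-like and nonclassical monocyte-like cells.

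Of 9 proteases and scaffolds that act on CXC chemokines, 2 each were highest in neutrophil-like and Kupffer-like cells and 1 each in LSEC-like, basophil or mast-like, cDC2-like, pDC-like and plasma-like cells. The gelatinase Mmp9 was at 1321 CPM and the collagenase Mmp8 at 971 CPM in neutrophil-like cells, next at 33.1 CPM in Kupffer-like and 72.6 CPM in classical monocyte-like cells. Within neutrophil-like cells they ran against the ligands. Mmp8 was at 465 CPM in the mature cluster and 3221 CPM in the immature one, and Mmp9 at 1089 CPM and 2351 CPM. Elane, neutrophil elastase, was at 480.5 CPM in cDC2-like cells, the class with the least certain name. It was next at 397 CPM in basophil or mast-like cells and at 0 CPM in neutrophil-like cells.

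Of 11 genes that signal downstream of the receptors, 4 were highest in neutrophil-like, 2 each in ILC1-like and LSEC-like, and 1 each in Kupffer-like, B-like and plasma-like cells. Gnai2, a G protein subunit, was at 1302 CPM in neutrophil-like and next at 1176 CPM in cDC2-like cells. Rac2, a GTPase of leukocyte movement, was at 919 CPM in neutrophil-like and next at 903 CPM in NK-like cells.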
